A study of Nematostella vectensis with 4 samples.

Results

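NVE21527, NVE1555 and NVE13799 are gene models of the starlet sea anemone Nematostella vectensis whose deposited names are entries for vertebrate collagens: CO7A1_MOUSE for collagen VII, and COCA1_MOUSE and COCA1_CHICK for collagen XII. They were taken by identifier, 3 genes of the 25734 in the table, and were chosen by their UMI counts per tissue in earlier results of these data, which placed each almost wholly in 1 tissue. Their levels by tissue are therefore a description, and the rest of the account is about the barcodes that held them and the other genes found there. The names point to a protein family. Neither the sequence nor the genome position of the models could be examined, so the names themselves were not checked.

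The study dissected sub-adult polyps aged 5 months into tentacle, mesentery, pharynx and body wall, and made 1 single-cell RNA library from each. Tissue pieces were taken apart with a trypsin substitute and loaded on a droplet controller with version 2 reagents, so that each transcript copy carries a unique molecular identifier (UMI) and each cell a barcode. The labels give no genotype, strain or number of animals pooled, and no library is a replicate of another. Errors given below are 95% intervals for counting alone (exact Poisson for levels, exact Clopper-Pearson for shares). Where a count is 0, the limit given instead is that of 3 counts, and no difference between tissues could be tested.

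Each library held 7000 barcodes. Those with at least 300 UMIs were analysed: 1299 in tentacle, 1357 in mesentery, 2804 in pharynx and 1652 in body wall, with medians of 542 to 766 UMIs and sums of 1563722 to 2755343 UMIs. In such data a barcode can also collect stray RNA from broken cells, or the RNA of more than 1 cell. Between libraries 22 barcode sequences were shared, and 1 of these held a gene described here, in the body wall.

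Vertebrate collagen VII forms the anchoring fibrils that tie the skin's basement membrane to the tissue beneath. Collagen XII belongs to the FACIT group, collagens that sit on the surface of fibrils instead of forming them, and both proteins carry von Willebrand A and fibronectin type III domains beside their collagenous parts. In sea anemones collagens are known from the mesoglea, the matrix layer between the outer and inner epithelia, and a special class of short collagens builds the capsules of stinging cells.

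CO7A1_MOUSE (NVE21527) was a body wall transcript carried by few cells. It had 4882 body wall UMIs, 1 UMI in the tentacle, and 0 in both mesentery and pharynx. Per 1000000 UMIs of the tissue (CPM) this is 2436 (2368 to 2506) in the body wall, 0.543 (0.0137 to 3.02) in the tentacle, while the limit of 3 counts is 1.92 in the mesentery and 1.09 in the pharynx. The body wall stood 4491-fold above the tentacle (806 to 177426, on 1 tentacle UMI). With counts of 0 raised to 3 UMIs per library as a floor, it stood at least 1270-fold above the mesentery and at least 2238-fold above the pharynx. The body wall lies apart from the rest, and the other 3 tissues do not differ from each other beyond counting error.

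Of the 1652 body wall barcodes, 85 held a UMI of NVE21527, or 5.15% (4.13 to 6.32). When each barcode was thinned to 300 UMIs, 48 did, or 2.91%. These barcodes fell into separate classes: 59 held 1 UMI, 1 held 3, and 25 held between 50 and 479, with none from 4 to 49. The gap applies to the analysed barcodes only. Among those under 300 UMIs, 21 held at least 3 UMIs of NVE21527, up to 33. The 25 high barcodes had a median of 189 UMIs and a mean of 193 ± 103 (SD over barcodes of 1 library), and together they held 98.7% of the gene's body wall UMIs. They are 1.51% (0.982 to 2.23) of the body wall barcodes.

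Within a high barcode NVE21527 made up 5.52% to 22.2% of all UMIs, with a median of 14.6%. Their total UMIs ran from 343 to 3091 with a median of 1335, against 738 in barcodes without the gene. Depth thus moved with the gene, and its part in the result was not tested. The high barcodes lay between the 12.8th and the 94.3rd percentile of body wall depth. The shallowest, at 343 UMIs, held 50 UMIs of NVE21527, a share of 14.6%.

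**Figure D1:**
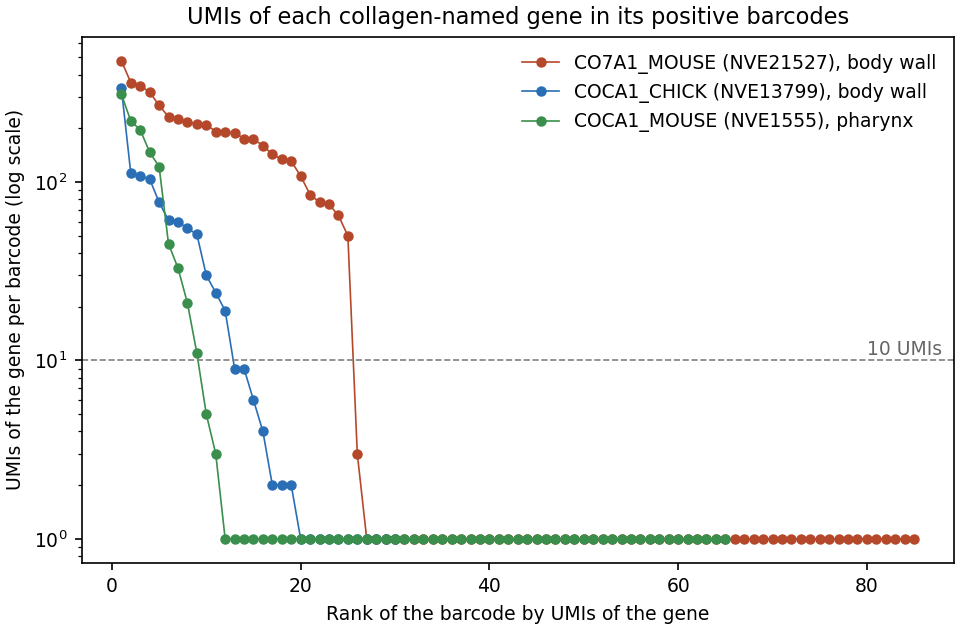
UMIs of each gene per positive barcode (log scale) against the barcode's rank, for CO7A1_MOUSE (NVE21527) and COCA1_CHICK (NVE13799) in the body wall and COCA1_MOUSE (NVE1555) in the pharynx. NVE21527 drops from 50 UMIs at rank 25 to 3 at rank 26, whereas the other genes pass through intermediate values, and the dashed line marks 10 UMIs.

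The 59 barcodes with 1 UMI of NVE21527 had a median total of 1690 UMIs. Only 3 of the 59 (5.09%, 1.06 to 14.2) held any of the 5 genes that led the list of genes found with NVE21527. Among the barcodes with none 23 of 1567 (1.47%) did, and 25 of 25 of the high ones. The 5 were picked as high in those 25 and scarce in the 1567, so both of these shares follow from that choice. The summed level of these 5 genes was 58.8 CPM in the barcodes with 1 UMI and 12.2 CPM in those with none. Some barcodes rich in markers of other cells also held NVE21527. With at least 10 UMIs of MP20_DROME (NVE7520), named after a fly muscle protein, 3 of 99 barcodes held it (3.03%, 0.629 to 8.60, median depth 2798 UMIs). With at least 10 UMIs of the chitinase CHIT_BRUMA (NVE9103) 5 of 116 did (4.31%, 1.41 to 9.77, median 2299), and of the toxin TX371_NEMVE (NVE1809) 6 of 90 (6.67%, 2.49 to 14.0, median 2012), 1 of these with 134 UMIs. Over all body wall barcodes, at a median of 766 UMIs, 3.57% held exactly 1 UMI. The source of single UMIs was not tested.

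**Figure D2:**
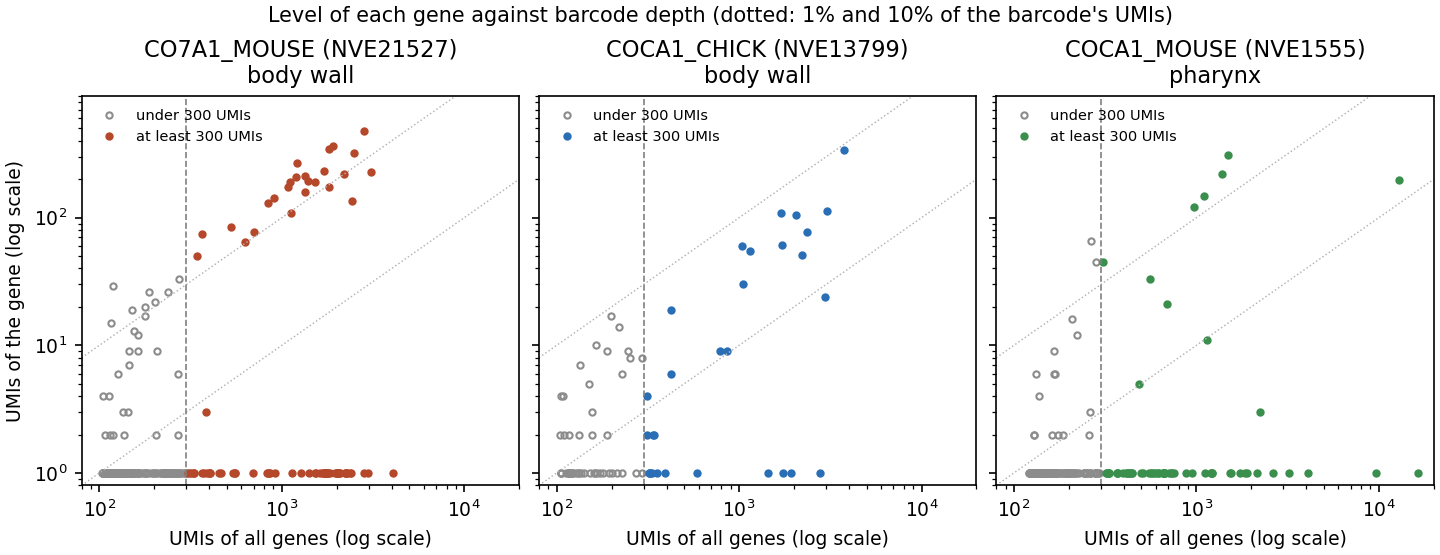
UMIs of each gene in a barcode against the UMIs of all genes in that barcode, both on log scales, in the tissue where the gene is highest. Open grey points are barcodes under 300 UMIs, the dashed line is that minimum and dotted lines mark 1% and 10% of a barcode's UMIs. The 25 high NVE21527 barcodes, at 343 to 3091 UMIs, lie mostly above the 10% line, at shares of 5.52% to 22.2%. They lie apart from the row of barcodes with 1 UMI.

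To see what else these cells transcribe, the 26 barcodes with at least 3 UMIs of NVE21527 were set against the 1567 with none. A gene was counted as found with NVE21527 if at least 20% of the 26 held it and its CPM there was at least 4 times that of the barcodes with none. Of 231 genes with at least 20 UMIs in the 26 barcodes, 18 met this, or 7.79%. The same 18 were counted when only the 25 high barcodes were used, of 230 tested (7.83%). A leading group was nearly confined to these barcodes, and a remainder was also common elsewhere.

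The leading named gene was FBP1_STRPU (NVE22591), named after sea urchin fibropellin, a protein of the extracellular layer around the embryo. It had 495 UMIs in the 26 barcodes and 5 in the 1567 others, or 13656 and 2.66 CPM, a ratio of 5141 (2188 to 15904). All 26 barcodes held it, and in the 25 high ones its UMIs ran from 4 to 42. Conversely, all 25 body wall barcodes with at least 3 UMIs of FBP1_STRPU held at least 3 of NVE21527. In the tentacle, mesentery and pharynx FBP1_STRPU had 0 UMIs.

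VITRN_MOUSE (NVE15186), named after vitrin, a matrix protein with von Willebrand A domains, behaved alike. It had 352 UMIs in 25 of the 26 barcodes and 4 in the 1567 others, a ratio of 4570 (1769 to 16866), and 0 in the other 3 tissues. All 24 barcodes with at least 3 UMIs of VITRN_MOUSE held at least 3 of NVE21527. The unnamed models NVE12877 and NVE22590 stood 5266-fold (2242 to 16288) and 2571-fold (1292 to 5996) higher with NVE21527, in 25 and 26 of the 26 barcodes.

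Over all 1652 body wall barcodes, log-scaled levels of 6 genes correlated with NVE21527 at Pearson's r of 0.830 to 0.878: NVE22589, FBP1_STRPU, VITRN_MOUSE, NVE12877, NVE22590 and NVE17839. The seventh gene reached 0.456. The barcodes share 1 library and differ in depth, so these values only describe it. The identifiers NVE22589, NVE22590 and NVE22591 are consecutive, and whether these models share reads was not tested. NVE17839 is the exception among the 6 in its tissue pattern: it stood at 48.4 CPM in the body wall but 117 CPM in the pharynx, where NVE21527 had 0 UMIs.

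Other genes found with NVE21527 were scarcer. AGRIN_RAT (NVE23805), named after agrin, a heparan sulphate proteoglycan of basement membranes, had 37 UMIs in 16 of the 26 barcodes against 29 in the 1567 others, a ratio of 66.3 (39.7 to 112). FoxQ2d (NVE17371), a forkhead transcription factor, had 22 UMIs in 11 of the 26 against 6 in the 1567 others, a ratio of 190 (74.9 to 574). It was not confined to the body wall, at 14.5 CPM there and 13.0 CPM in the tentacle, where 20 barcodes held 24 UMIs. INSM1_XENLA (NVE7206), named after a zinc-finger transcription factor of vertebrate neuroendocrine cells, was 20.8-fold higher (11.7 to 35.5) and found in 13 of the 26. Of the 5 body wall barcodes with at least 3 UMIs of INSM1_XENLA, 1 held at least 3 of NVE21527 and 3 held none. Every tissue held INSM1_XENLA, from 21.1 CPM in the mesentery to 36.9 CPM in the body wall. TYRO_STRLN (NVE9995), named after the copper enzyme tyrosinase, had 26 UMIs in 16 of the 26 and 0 in the 1567 others, at least 450-fold higher. By tissue TYRO_STRLN was not particular to the body wall, at 13.0 CPM there, 13.4 CPM in the mesentery and 10.9 CPM in the pharynx.

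The remaining named genes were less particular to these barcodes. RASEF_MOUSE (NVE23844), named after a Rab GTPase, was 5.85-fold higher (3.93 to 8.45) and present in 14.1% of the barcodes without NVE21527. A small heat-shock protein, SIP1_CAEEL (NVE3918), and an Hsp70 chaperone, HS71L_BOVIN (NVE15435), were 4.36-fold (3.69 to 5.13) and 4.27-fold (3.49 to 5.17) higher, yet were found in only 11 and 6 of the 26 barcodes.

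Marker lists of other cells were compared between the 25 high NVE21527 barcodes and those without the gene. The 4 stinging-cell (cnidocyte) markers had 0 UMIs in the high barcodes, and only 1.53% of the others held one. The 7 digestive gland markers had 0 UMIs in both. Of the 3 MYL9 muscle markers only MYS_ARGIR (NVE14552) was detected in the body wall, in none of the 25, while 18.4% of the others held it. The list of MP20 was found in 2 of the 25 against 35.3%. The 3 gastrodermis markers summed to 2398 CPM, with 0 to 14577 CPM per barcode and a median of 2160, against 31090 CPM in the barcodes without NVE21527. Nearly all barcodes held this list, 24 of the 25 and 97.9% of the others, so its detection marks no cell type. The 3 neuron markers summed to 195 CPM in 6 of the 25 barcodes, against 436 CPM elsewhere. The 3 toxin models were found in 6 of the 25 (24.0%), at up to 16893 CPM in a barcode, against 29.0% of the others. The barcode with 134 UMIs of NVE21527, the lowest share of the 25 at 5.52%, also held at least 10 UMIs of TX371_NEMVE (NVE1809). Dissociation stress genes summed to 8393 CPM against 11860, ribosomal protein genes to 319345 against 323913, and cycling genes to 55.8 CPM (2 UMIs) against 49.9. Whether the RNA of other cells contributes to these values was not tested.

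COCA1_CHICK (NVE13799) was the other body wall gene. It had 1082 UMIs in the body wall and 0 in each of the tentacle, mesentery and pharynx. Its body wall level was 540.0 CPM (508 to 573), at least 332-fold, 281-fold and 496-fold above the 3-UMI floors of these tissues. Again only the body wall stood apart, and the other 3 tissues cannot be ordered.

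NVE13799 was found in 30 of the 1652 body wall barcodes, or 1.82% (1.23 to 2.58), and in 25 (1.51%) after thinning. Here 11 barcodes held 1 UMI, 3 held 2, and 16 held at least 3. The 12 with at least 10, a threshold chosen after the values were seen, held 336, 112, 108, 104, 77, 61, 60, 55, 51, 30, 24 and 19 UMIs, 95.8% of the gene's total. A single barcode supplied 31.1%. In the 12 barcodes the gene made up 0.815% to 8.92% of the UMIs, with a median of 4.09%. Their median total of 1878 UMIs was above the 764 of barcodes without the gene, and the part of depth was not tested. Among the 99 barcodes rich in MP20_DROME 1 held a single UMI of NVE13799, or 1.01% (0.0256 to 5.50). Of the 11 barcodes with 1 UMI, 1 held any of its 5 leading companions (9.09%, 0.230 to 41.3). Of the high barcodes 12 of 12 did, and 2.16% of those with none. The companions were picked from these same high barcodes and those with none, so both of these shares follow from that choice. The source of these single UMIs was not tested either.

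Fewer than 20 barcodes held 3 UMIs of NVE13799, so all 30 positive barcodes were set against the 1622 with none. Of 251 genes tested, 14 were found with it, or 5.58%. With the 12 high barcodes the count was 17 of 188 (9.04%), and 12 genes were shared by these lists. The leading named gene was COCH_HUMAN (NVE23717), named after cochlin, a von Willebrand A domain protein of the inner-ear matrix. It had 93 UMIs in 13 of the 30 barcodes and 0 in the 1622 others, at least 1633-fold higher. Outside the body wall it had 1 UMI, which was in the mesentery. All 7 barcodes with at least 3 UMIs of COCH_HUMAN held at least 3 of NVE13799.

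Unnamed models were more abundant there. NVE8783 had 979 UMIs in 18 of the 30 barcodes and 13 in the 1622 others, a ratio of 3968 (2309 to 7479), and 0 UMIs in the other 3 tissues. NVE20094 had 1087 UMIs in 17 of the 30 and 21 in the others, a ratio of 2727 (1775 to 4424). Of the 17 barcodes with at least 3 UMIs of NVE8783, 16 held at least 3 of NVE13799, and the same was true of NVE20094. Over the 1652 barcodes the correlations with NVE13799 were 0.837 for NVE8783, 0.799 for NVE20094, 0.783 for COCH_HUMAN and 0.763 for NVE14802, and then fell to 0.346 for NVE1143 and 0.201 for NVE8782. NVE8782 was widespread in the body wall, in 41.2% of the barcodes without NVE13799, and was 8.56-fold higher (7.81 to 9.37) with it. NVE8782 and NVE8783 have consecutive identifiers, and whether they share reads was not tested.

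Heat-shock genes filled the lower part of this list. HSP11_CAEEL (NVE3919) and SIP1_CAEEL (NVE10282 and NVE3918), all named after small heat-shock proteins of Caenorhabditis elegans, were 6.20-fold (4.96 to 7.67), 5.22-fold (3.12 to 8.27) and 4.35-fold (3.69 to 5.09) higher. HS105_HUMAN (NVE8049), named after a large Hsp70 relative, was 6.11-fold higher (3.69 to 9.63), and HS71L_BOVIN (NVE15435) was 4.72-fold higher (3.92 to 5.65). Each was found in 6 to 11 of the 30 barcodes.

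In the 12 high barcodes the cnidocyte list had 0 UMIs, as it did in all but 1.60% of the barcodes without NVE13799, and the digestive gland list had 0 in both. Galaxin GXN_ACRMI (NVE4779) and the body wall hemicentin had 0 UMIs, against 27.2% and 31.8% of barcodes with none that held them. They were also scarce in the 25 high NVE21527 barcodes, each found in 1, against 27.2% and 31.6% of the barcodes without that gene. The 3 toxin models were found in 2 of the 12, at 85.4 CPM against 3161 CPM in barcodes without NVE13799. The MYL9 muscle list was found in 1 of the 12 against 18.2%, and MP20 in 1 against 35.2%. The gastrodermis list summed to 4058 CPM, with 868 to 15599 per barcode, against 30615 CPM in barcodes without NVE13799. It was found in 12 of the 12 and in 97.9% of the barcodes without the gene. Neuron markers summed to 427 CPM against 433, dissociation stress genes to 11020 against 11776, and ribosomal protein genes to 327724 against 324414. The cycling list had 0 UMIs.

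The body wall chitinase CHIT_BRUMA (NVE9103), named after a chitin-cleaving enzyme of a nematode, differed between the barcodes of these genes. It was found in 12 of the 12 high NVE13799 barcodes (lower bound 73.5%), at 4955 CPM against 2082 CPM in barcodes without NVE13799. In the 25 high NVE21527 barcodes it was found in 9 (36.0%, 18.0 to 57.5), at 363 CPM against 2150 CPM. Chitinase was widespread, in 52.5% of the barcodes without NVE21527, so it does not mark the NVE13799 barcodes by itself. Of the 116 barcodes with at least 10 UMIs of chitinase, 5 held at least 10 UMIs of NVE13799, while the highest NVE21527 count in any of them was 1.

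NVE21527 and NVE13799 were found together in 1 barcode. Of the 85 barcodes with NVE21527 and the 30 with NVE13799, 1 held both, with a single UMI of NVE21527 beside 108 of NVE13799. This is 1.18% (0.0298 to 6.38) of the NVE21527 barcodes, against 1.85% of the barcodes without NVE21527 that held NVE13799. With at least 3 UMIs of each, 0 of 26 and 0 of 16 barcodes overlapped, and 3 counts would be shares of 11.5% and 18.8%. In barcodes without NVE21527, 0.957% held at least 3 UMIs of NVE13799, and without NVE13799, 1.60% held at least 3 of NVE21527. At these numbers a tendency to avoid each other was not detectable. Among the genes found with each, the lists from the barcodes with at least 10 UMIs shared 2, SIP1_CAEEL (NVE3918) and HS71L_BOVIN (NVE15435). These are 11.1% of the NVE21527 list and 11.8% of the NVE13799 list. Over all genes tested, 7.83% were on the NVE21527 list and 9.04% on the NVE13799 list, so nothing is read from this overlap.

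**Figure D3:**
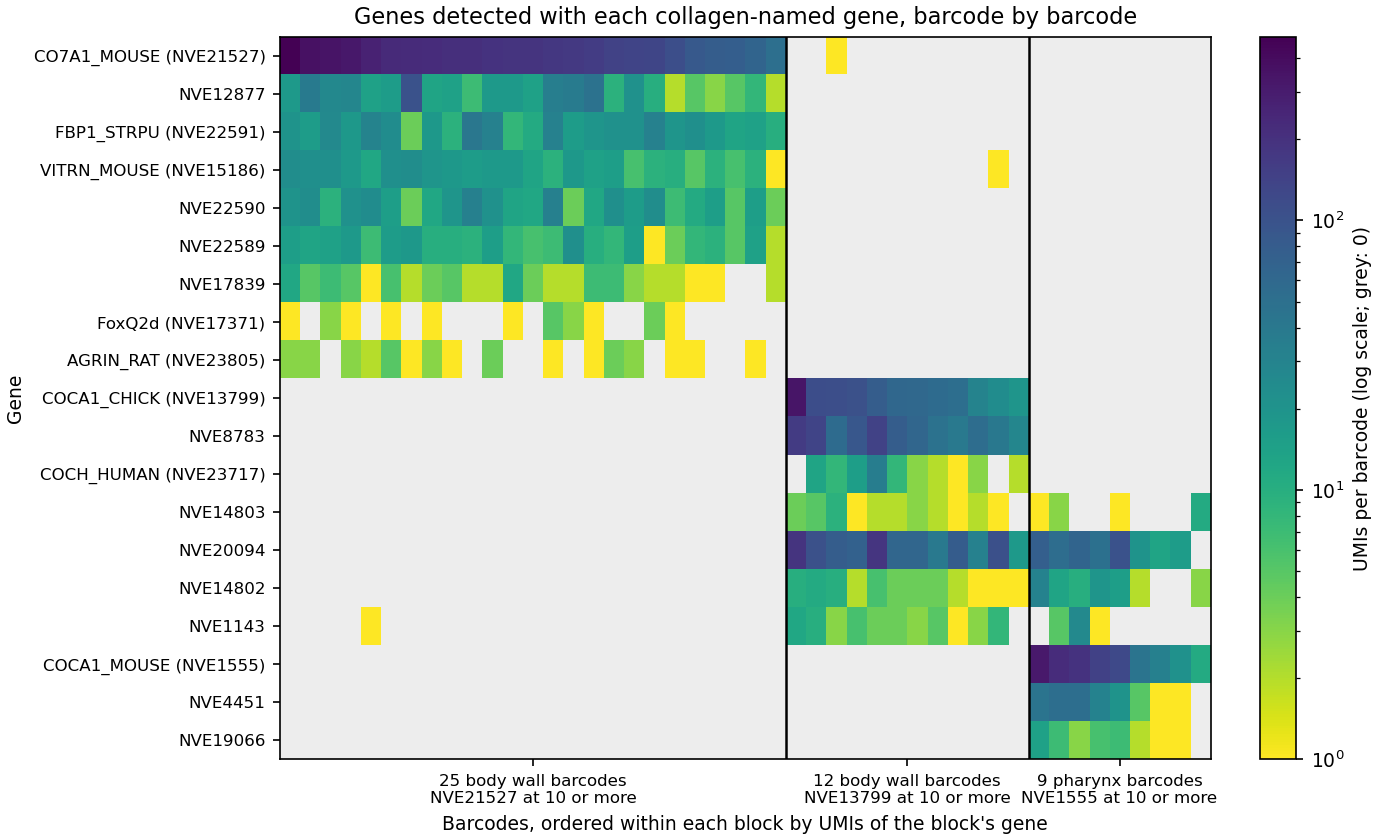
UMIs (colour, log scale; grey is 0) of the 3 collagen-named genes and of the genes found with them, in each barcode with at least 10 UMIs of a collagen-named gene. The left block of 25 body wall barcodes holds NVE21527 with FBP1_STRPU and VITRN_MOUSE, the middle block of 12 holds NVE13799 with NVE8783 and COCH_HUMAN, and the right block of 9 pharynx barcodes holds NVE1555 with NVE4451, while NVE20094 appears in both the middle and the right block.

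COCA1_MOUSE (NVE1555) was a pharynx transcript, high in 9 barcodes. It had 1168 pharynx UMIs, 3 mesentery UMIs, 1 body wall UMI and 0 tentacle UMIs. The level was 424 CPM (400 to 449) in the pharynx, against 1.92 CPM (0.396 to 5.61) for the mesentery and 0.499 CPM (0.0126 to 2.78) for the body wall. The pharynx stood 221-fold above the mesentery (75.4 to 1073, on 3 UMIs), 850-fold above the body wall (152 to 33580, on 1 UMI) and at least 261-fold above the tentacle. The pharynx was highest, and the intervals of the other 3 tissues overlap. The 3 mesentery UMIs lay in 3 barcodes.

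In the pharynx 65 of 2804 barcodes held NVE1555, or 2.32% (1.79 to 2.94), and 36 (1.28%) after thinning. Of these 54 held 1 UMI. The 9 barcodes with at least 10 held 311, 220, 196, 147, 122, 45, 33, 21 and 11 UMIs, 94.7% of the total, and the leading 5 alone held 85.3%. The pharynx level therefore rests on few barcodes: without the 5 highest the ratio to the mesentery was 32.8. NVE1555 made up 0.968% to 20.8% of the UMIs of the 9 barcodes, with a median of 12.5%. Their median total was 1104 UMIs against 559 in barcodes with none, which was not tested as a cause. The barcode with 196 UMIs stood apart in depth, with 12931 UMIs of 2491 genes, at the 99.5th percentile of the pharynx barcodes. Whether it holds more than 1 cell was not tested, and results with and without it follow.

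Of the 54 barcodes with 1 UMI of NVE1555, 7 (13.0%, 5.37 to 24.9) held a leading companion gene, against 11.1% of barcodes with none. The 5 companions were picked for being scarcer in barcodes with none than in those with at least 10 UMIs, so the 11.1% depends on that choice. The summed level of these 5 companions was 6933 CPM in the 54 against 454 CPM in barcodes with none, and 1 barcode held 308 UMIs of NVE20094 beside 1 UMI of NVE1555. Of 58 pharynx barcodes rich in Ncol3 (NVE9976), the minicollagen of stinging capsules, 2 held 1 UMI of NVE1555 (3.45%, 0.420 to 11.9). Of 41 rich in the myosin light chain MYL9_MOUSE (NVE20160) 0 did, which allows a share of up to 7.32%. Barcodes with exactly 1 UMI were 1.93% of all pharynx barcodes, and the source of single UMIs was not tested.

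With all 65 positive barcodes against the 2739 with none, 1 of 580 genes (0.172%) was found with NVE1555. It was the unnamed NVE20094, which stood second on the list of NVE13799 in the body wall. NVE20094 was 40.2-fold higher (35.9 to 45.0) and present in 14 of the 65, against 4.13% of those with none. The count grew once single UMIs were left out: 7 of 215 genes (3.26%) with at least 3 UMIs of NVE1555, 13 of 202 (6.44%) with at least 5, and 11 of 200 (5.50%) with the 9 barcodes of at least 10. The 11 include 4 named genes, and all 4 rested on the 12931-UMI barcode: MOEH_DROME (NVE15896), ACAP2_CHICK (NVE12049), PAK1_BOVIN (NVE11120) and ML12B_BOVIN (NVE14945) had 34, 51, 20 and 33 of their 35, 55, 21 and 34 UMIs in it. Without that barcode, a setting chosen after the values were seen, 5 genes were found, NVE4451, NVE20094, NVE19066, NVE14802 and NVE2343, and none of these 5 has a name.

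The 4 of these 5 that also correlated best with NVE1555 are given with and without the deepest barcode. NVE4451 had 206 UMIs in 8 of the 9, or 10006 CPM against 96.3 CPM in barcodes with none (104-fold, 86.1 to 125), and 20246 CPM without the deepest. NVE20094 had 393 UMIs in 8 of the 9, or 19090 CPM against 197 CPM (96.7-fold, 84.6 to 110), and 42712 CPM without it. NVE19066 had 41 UMIs in 8, or 1992 CPM against 19.2 CPM (104-fold, 67.1 to 160), and 4963 CPM without it. NVE14802 had 93 UMIs in 7, or 4517 CPM against 73.0 CPM (61.9-fold, 47.8 to 79.7), and 10841 CPM without it. All 4 levels were higher when the deepest barcode was left out.

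Within the pharynx the genes differed in how far they were also found apart from NVE1555. Of the 38 pharynx barcodes with at least 3 UMIs of NVE4451, 7 held at least 3 of NVE1555 and 29 held none of it. For NVE20094 these were 9 and 15 of 26, and for NVE14802 6 and 20 of 27. For NVE19066 5 of 9 held at least 3 of NVE1555 and 2 held none. By tissue, NVE14802 was highest in tentacle, at 214 CPM against 116.5 for pharynx and 33.9 for body wall. Analysed tentacle barcodes held 0 UMIs of NVE1555 and of NVE13799. NVE19066 stood at 127 CPM for mesentery against 61.3 for pharynx. NVE20094 reached 553 CPM for body wall, 467.5 for pharynx and 395 for mesentery. By contrast, NVE4451 was highest in pharynx, at 194.5 CPM, with 87.3 for tentacle and 0 UMIs for body wall. The correlations over 2804 barcodes were 0.374 for NVE19066, 0.314 for NVE20094, 0.275 for NVE4451 and 0.256 for NVE14802, and 0.141 and 0.132 for NVE9066 and NVE14803.

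Marker lists are given for the 9 barcodes and, in brackets, for the 8 that remain without the deepest. Cnidocyte markers had 1 UMI (0) against 1737 CPM in the barcodes without NVE1555, and digestive gland markers 1 UMI (1) against 3319 CPM. These lists were found in 8.40% and 17.6% of the barcodes with none. MYL9 muscle markers were found in 3 of 9 (2 of 8) against 21.0%, at 243 CPM (523) against 2146. Neuron markers were found in 3 of 9 (2 of 8) against 17.7%, at 389 CPM (261) against 272, so their level was above that of the other barcodes only with the deepest one. Gastrodermis markers, found in 9 of 9 (8 of 8) against 98.8%, summed to 3546 CPM (7053) against 27055. The cycling list had 0 UMIs. Dissociation stress genes summed to 11755 CPM against 10076, but to 5486 CPM without the deepest barcode, and ribosomal protein genes to 234225 CPM (265674) against 306057.

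The forkhead factor NvFoxA (NVE20630), a pharynx regulator, was found in 6 of the 9 (66.7%, 29.9 to 92.5) against 21.0%, at 534 CPM, or 1045 CPM without the deepest barcode, against 319 CPM. HMCN1_HUMAN (NVE10021), a leading pharynx gene with the name of hemicentin, was found in 2 of the 9 against 43.7%, at 389 CPM, or 131 CPM without the deepest barcode, against 1157 CPM. Depth differed between these classes and its part was not tested.

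The genes found with NVE1555 in the pharynx and with NVE13799 in the body wall overlapped, although the collagen-named genes themselves did not share a tissue. At 10 or more UMIs the lists held 5.50% of the 200 genes tested for NVE1555 and 9.04% of the 188 for NVE13799. They shared NVE14802, NVE20094 and NVE1143, 27.3% of the 11 genes of NVE1555 and 17.6% of the 17 of NVE13799. NVE1143 in the pharynx rested on the deepest barcode, which held 26 of its 32 UMIs. In the body wall all 14 barcodes with at least 10 UMIs of NVE20094 held at least 3 of NVE13799, and in the pharynx 9 of 19 such barcodes held at least 3 of NVE1555. The lists of NVE21527 and NVE1555, 7.83% and 5.50% of the genes tested, shared 0 genes, and nothing is read from this.

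All 3 genes were among the most unevenly spread of their tissues. The 25 barcodes richest in a gene held 98.7% of its UMIs for NVE21527 and 99.5% for NVE13799, ranking 6 and 3 among the 278 genes with at least 1000 body wall UMIs, whose median was 11.4%. For NVE1555 it was 96.6%, ranking 3 among 345 pharynx genes with a median of 14.9%. The genes were chosen with earlier results of these data known, so these ranks are a description. Only 30 body wall barcodes held NVE13799, so its 25 richest must hold most of its UMIs. For NVE21527, 25 is also the number of its high barcodes.

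Rows with the same names did not all share this pattern. The table holds 23 rows named CO7A1 or COCA1, of which 3 had 0 UMIs in the analysed barcodes and 9 besides the genes above had at least 50. Of the others 2 were also at least 4 times above every other tissue with at least 50 UMIs there, both in the body wall: COCA1_HUMAN (NVE25337) at 60.4 CPM, 10.1-fold above the tentacle, and COCA1_MOUSE (NVE5607) at 38.9 CPM, 15.3-fold above the pharynx. For comparison, 8.41% of all genes with at least 50 body wall UMIs passed this rule there, and 3.57% of those tested in the pharynx did. Neither was concentrated, as no barcode held more than 2 UMIs of them.

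COCA1_MOUSE (NVE18976) showed a graded pattern, at 16.3 CPM for tentacle, 53.7 for mesentery, 132 for pharynx and 375 for body wall, where 306 barcodes held it at up to 18 UMIs. COCA1_HUMAN (NVE5728), singled out after its values were seen, came nearest to the concentrated pattern: it stood at 213 CPM in the pharynx, in 40 barcodes of which 12 held at least 10 UMIs, up to 84. It was also present elsewhere, at 94.0 CPM in the mesentery, and had 0 UMIs in the 9 high NVE1555 barcodes. The other rows named CO7A1 were scarce: NVE10910 had 42 UMIs in 42 body wall barcodes and NVE10915 had 14 in 13. None of the 22 other rows had a UMI in the high barcodes of NVE21527 or NVE1555, and in those of NVE13799 only NVE21527 and NVE18976 had 1 UMI each. Reads of near-identical copies could be split between such rows, which the files do not show.

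**Figure D4:**
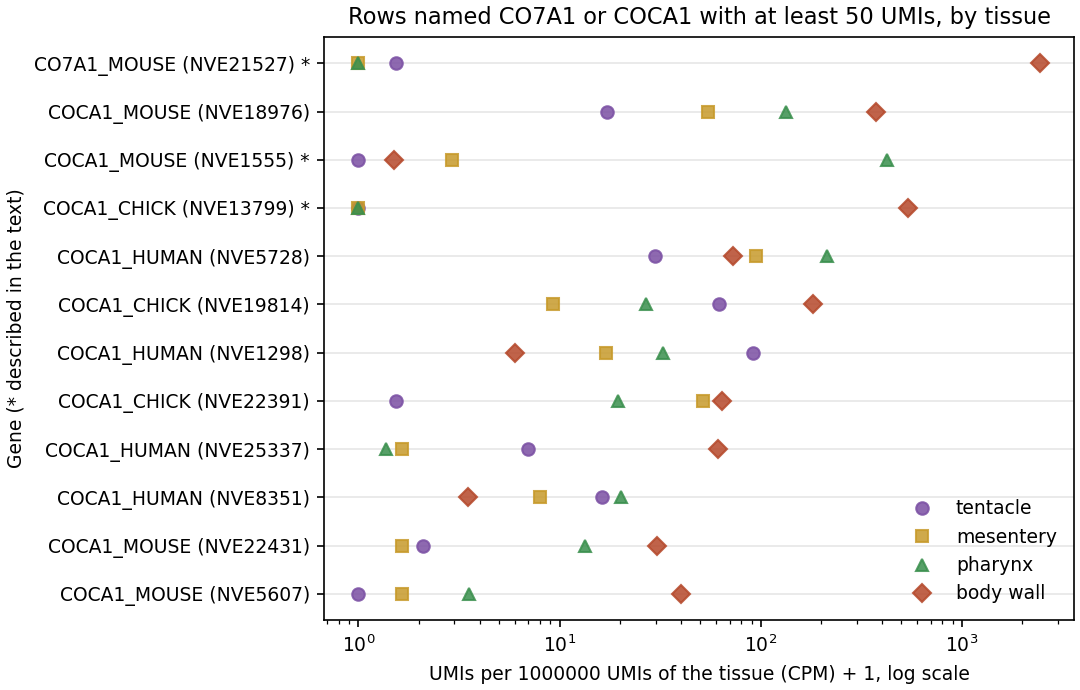
Levels by tissue (CPM + 1, log scale) of the 12 rows named CO7A1 or COCA1 with at least 50 UMIs, 1 symbol per tissue, where a symbol at 1 marks 0 UMIs and symbols there overlap. The genes marked with an asterisk lie at 424 to 2436 CPM in 1 tissue and under 2 CPM in the others, whereas most other rows spread over several tissues.

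The summed level of other collagen chains was lower in these barcodes, on few UMIs for NVE1555. Of 68 other collagen chain rows, 56 were detected, and none was found with NVE21527, NVE13799 or NVE1555, although at most 1 had the 20 UMIs there that testing asked for. Their summed level was 331 CPM in the 26 barcodes with at least 3 UMIs of NVE21527 against 3484 CPM in barcodes without it. It was 2009 against 3421 CPM for the 30 barcodes with NVE13799, and 946 against 1485 CPM for the 65 with NVE1555. In the barcodes with at least 10 UMIs it was 223, 171 and 583 CPM (914 without the deepest NVE1555 barcode). For NVE1555 these were 12 UMIs in 3 of the 9 barcodes, and 7 in 2 of 8 without the deepest. In barcodes without NVE1555 the share that held the list was similar, at 35.4%. CO1A2_CANFA (NVE12857), named after a fibrillar collagen and the most abundant of the 68, stood at 971 CPM in the body wall but had 3 UMIs in the 25 high NVE21527 barcodes and 0 in the 12 of NVE13799. By tissue, 6 of the 19 other collagen rows tested in the body wall were 4-fold above every other tissue, beside 8.41% of all genes, and 1 of 18 in the pharynx, beside 3.57%. Their median log2 ratio to the other tissues was 0.97 in the body wall, against -0.16 over all 8222 genes with at least 50 UMIs, and -0.18 in the pharynx against -0.07.

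Other matrix genes appeared singly. Of 51 von Willebrand A matrix rows, VITRN_MOUSE was found with NVE21527 and COCH_HUMAN with NVE13799, each the only one with enough UMIs there to be tested, and none with NVE1555. Of 187 basement membrane and matrix partner rows AGRIN_RAT was found with NVE21527, and none with the others. The most abundant of that list, TSP2_HUMAN (NVE25933), named after thrombospondin, had 0 UMIs in all the high barcodes. Of 51 collagen processing rows and 12 matrix receptor rows none was found with any of the 3 genes, again with at most 1 of a list tested. PDIA1_MACFU (NVE5009), named after protein disulfide isomerase, a subunit of the enzyme that hydroxylates collagen prolines, was present in 8 of the 25 high NVE21527 barcodes at 335 CPM against 439 CPM without the gene, in 7 of the 12 of NVE13799 at 513 against 438 CPM, and in 3 of the 9 of NVE1555 at 194 (392 without the deepest barcode) against 209 CPM. P4HA1_PONAB (NVE3822), named after the catalytic subunit, had 1, 1 and 3 UMIs there.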

How the data were processed

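The authors deposited 1 matrix for each of the 4 libraries, with UMI counts of gene models by barcode. The submitters' processing notes name Cell Ranger 2.1.0. The labels state no genome build, annotation or barcode-calling setting. Genes, lists and thresholds were chosen with earlier results of these data known.

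From these counts, barcodes with at least 300 UMIs were kept and summed per tissue to CPM. A count of 0 was set to 3 UMIs per library in ratios. No doublet caller was run, and leaving out the deepest 5% of barcodes is an alternative. Genes named are the 10 named and 2 unnamed genes with the largest ratio to barcodes without the gene (10 CPM added), the 6 with the highest correlation (log of 1 plus UMIs per 10000), rows sharing a name, and the leading genes of each list. On simulated counts the gene comparison was tried for the NVE21527 barcodes only, and the rule between tissues for the body wall only. The smaller barcode sets of NVE13799 and NVE1555 were not simulated, so this says nothing about their lists. None of the 3 identifiers matched the reference gene table (0 matches), so no sequence is shown. Python 3.11.15, numpy 2.4.6, scipy 1.17.1, pandas 2.3.3 and matplotlib 3.10.9 were used.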

Additional observations from a re-analysis of the deposited data

Results flagged for a closer look

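Barcodes under 300 UMIs entered only the alternative that keeps all barcodes, and they too held the 3 genes. NVE21527 had 525 UMIs in 248 such body wall barcodes, or 646 CPM (592 to 703), and 0 in those of the other 3 tissues. Of these barcodes 11 held 12 to 33 UMIs of it, and all 11 held a leading companion gene, against 1.53% of the shallow barcodes without NVE21527. Of the 221 with 1 UMI, 5.43% did.

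NVE13799 had 145 UMIs in 48 shallow body wall barcodes, or 178 CPM (151 to 210), and 0 in the other tissues. The 3 barcodes with at least 10 UMIs all held a companion gene, against 2.47%, and 13.8% of the 29 with 1 UMI did. NVE1555 had 284 UMIs in 115 shallow pharynx barcodes, or 382 CPM (339 to 429), of which 4 held 12 to 66 UMIs, all with a companion gene, against 8.33%, and 15.2% of the 99 with 1 UMI did. It also had 1 UMI in a shallow tentacle barcode. In the shallow mesentery barcodes NVE1555 had 4 UMIs in 4 barcodes, or 4.19 CPM (1.14 to 10.7), above the 3 UMIs that a count of 0 allows.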

How the results depend on the processing

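No paired analysis was possible because each tissue has 1 library. Of 67 alternative values 29 stayed near the reported one (inside its counting interval, or within 1.5 times for a number of genes) and 38 moved. A change of direction was not scored, because the tissue set against the others was fixed in the main setting. Alternatives using at least 3 UMIs of NVE1555 or NVE13799, at least 10 UMIs, or leaving out single barcodes were chosen after seeing the data. The cause of a shift was not tested unless the setting itself fixes it. The lower bound for NVE21527 over the mesentery was 1181 with at least 500 UMIs per barcode, 1611 with all barcodes, 986.7 without the deepest 5% and 812.3 without its 5 highest barcodes, and with equal weight per barcode it was 885.7-fold above the tentacle. For NVE13799 the bounds were 259.2, 365.6, 150.8, 90.32 and 191.9 in that order, and for NVE1555 the ratio became 32.75 without its 5 highest barcodes. The share of barcodes with NVE21527 was 6.455% with at least 500 UMIs, 2.906% after thinning and 1.574% with at least 2 UMIs of the gene. That of NVE1555 was 1.284% after thinning and 0.3923% with 2 UMIs, and that of NVE13799 was 1.114% in all barcodes and 1.150% with 2 UMIs. Mean UMIs per positive barcode were 68.71, 16.24 and 23.00 for NVE21527 (500 UMIs, all barcodes, thinned). In the same order they were 24.44, 8.067 and 8.028 for NVE1555 and 57.83, 15.73 and 7.520 for NVE13799, and without the deepest 5% they were 16.13 and 25.72. Genes found with NVE1555 numbered 1 as reported, 7, 13 and 11 with at least 3, 5 and 10 UMIs of it, 3 with at least 500 UMIs per barcode, 0 without the deepest 5%, 45 with no minimum share and 5 at 10 UMIs without its deepest barcode. The overlap of NVE21527 and NVE13799 became 0% both ways at 3 UMIs of each. Limits: 1 library per tissue, 9 to 25 high barcodes per gene, and no check for doublets beyond leaving out deep barcodes.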

Other observations

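NVE20094, found with NVE13799 in the body wall and with NVE1555 in the pharynx, also reached at least 10 UMIs in barcodes without either. In the pharynx 19 barcodes held 12 to 308 UMIs of it: 8 had at least 3 UMIs of NVE1555 without COEA1_MOUSE (NVE765), named after collagen XIV, 6 had NVE765 without NVE1555, 1 had both, 2 had 1 or 2 UMIs of NVE1555, and 2 had neither. The models NVE4602 and VWA2_XENLA (NVE10702) were each found in 7 of the 19, and these barcodes held 77.4% and 85.6% of the pharynx UMIs of the respective gene. In the mesentery 3 barcodes held 54 to 261 UMIs of NVE20094 and 0 of NVE1555, NVE13799, NVE765, NVE10702 or NVE4602. The genes NVE765, NVE10702 and NVE4602 were chosen after their values were seen, and these counts are a description with no test.

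The identifier after COCH_HUMAN (NVE23717), the leading named companion of NVE13799, is COCA1_MOUSE (NVE23718), which had 0 UMIs in every tissue. Whether these are separate genes was not tested.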
